A study of Hordeum vulgare with 12 samples.

Results

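The genotypes compared here are a barley mutant and its wild type (WT) at the inflorescence stage labelled W3.5, over the whole range of transcript abundance. A gene was kept when the authors' mean reached at least 1 FPKM (a read count corrected for the gene's length and for how deeply the library was sequenced) in the mutant or in WT, which held for 18719 of 29014 identifiers. All plants were of the cultivar Golden Promise, and RNA came from whole inflorescences, pooled from 15 to 20 spikes for each biological replicate. The 6 samples at W3.5 were 3 mutant and 3 WT libraries, and 3 mutant and 3 WT libraries from the stage labelled W2.0 served for comparison. The genotype label is only "mutant", and the series title speaks of FASCIATED EAR genes. The mutant columns and sample descriptions also carry the prefix F4, which is not explained. None of these says which gene was mutated, so the level of that gene could not be looked up as a check of the labels. The design text gives the later stage as W3.0, and the sample labels were followed. Growth is described only as normal, and no other treatment is given for any group.

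FASCIATED EAR genes are named after maize mutants in which the inflorescence meristem enlarges and flattens, a growth form called fasciation. Several of the maize genes encode receptors or other parts of the CLAVATA pathway, in which signalling peptides restrain WUSCHEL-type transcription factors that keep meristem cells undifferentiated. On the Waddington scale of barley development, to which W stages usually refer, W2.0 is the double ridge stage and W3.5 falls while spikelets and floral organs are being laid down. In RNA from whole inflorescences, fewer cells of a type and less RNA per cell cannot be told apart. The identifiers matched no entry of the gene tables used here, so no gene below is given a name or a role, and lists of meristem, floral and leaf genes could not be drawn up; leaf tissue in the samples was therefore not assessed.

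Most genes stood at nearly the same level in mutant and WT at W3.5. The difference, log2(mutant + 1) minus log2(WT + 1) of the authors' means, was under 0.5 in size for 16484 genes (88.1%). Its median was -0.05, and the central 95% of genes lay between -0.69 and 0.90. A difference of at least 1 on this scale, called 2-fold here, was found upward in 387 genes (2.07% of those kept) and downward in 156 genes (0.833%), so that 71.3% of the 2-fold genes were higher in the mutant. At 4-fold, 92 genes were higher in the mutant and 21 were lower. These means have no SD, n or test. The lowest counted gene above the 2-fold line lay at 1.0033 and the nearest uncounted one at 0.9985, and at the lower line the values were -1.0003 and -0.9986. The same rule on the means at W2.0 gave 496 genes higher in the mutant (2.61% of 18974) and 368 lower (1.94%). The filter itself left 581 genes at 1 FPKM or more in the mutant alone, 522 in WT alone and 17616 in both; the highest gene left out reached 0.99883 FPKM and the lowest one kept 1.0002 FPKM.

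**Figure D1:**
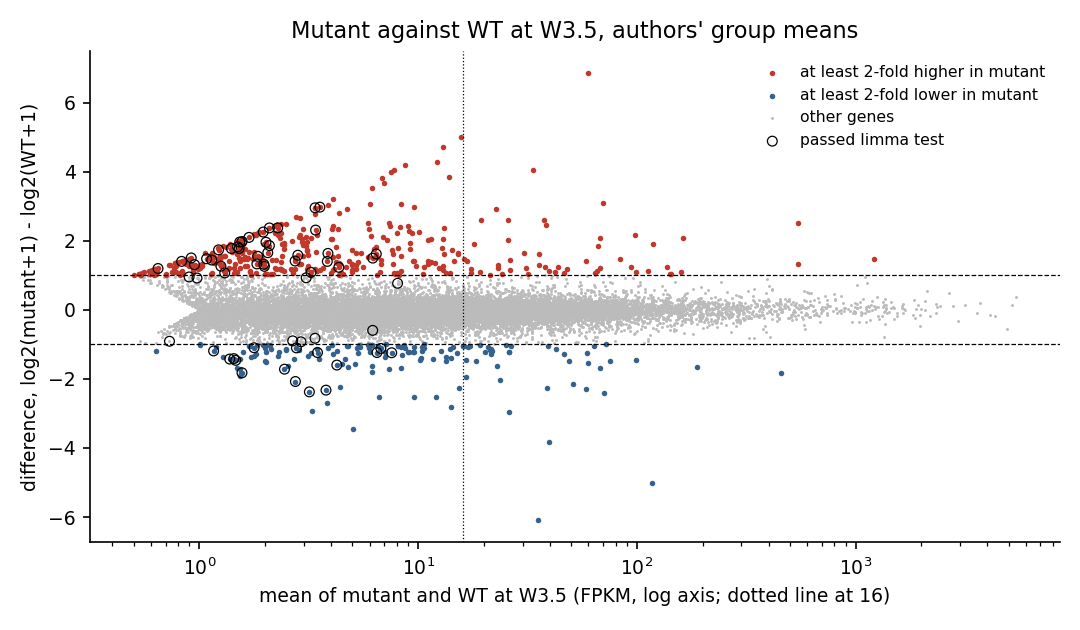
Difference between mutant and WT at W3.5 (vertical axis, log2 of FPKM + 1) against the mean of both columns (horizontal axis, FPKM, log axis) for the 18719 genes kept; red points are 2-fold higher in the mutant, blue points 2-fold lower, and rings mark the genes that passed the limma test. The cloud narrows towards high levels, and a few genes above 16 FPKM (dotted line) stand far outside it, up to 6.86 and down to -6.09.

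Most of the excess of genes higher in the mutant came from the low end of the range. Among the 4611 genes with a mean of both genotypes under 4 FPKM, 227 (4.92%) were 2-fold higher in the mutant and 51 (1.11%) lower. Between 4 and 16 FPKM the counts were 108 higher (1.64%) and 64 lower (0.97%) of 6595 genes. Between 16 and 64 FPKM they were level, with 32 higher (0.571%) and 33 lower (0.589%) of 5607 genes. Above 64 FPKM, 3 were higher and 1 lower among the 396 most abundant genes, and 17 were higher and 7 lower among the other 1510. In all, 52 genes were higher and 41 lower among the 7513 genes at 16 FPKM and over. The median difference ran from -0.07 between 4 and 16 FPKM to 0.04 among the 396 most abundant genes, which held 41.8% of the summed FPKM in the mutant and 40.8% in WT.

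**Figure D2:**
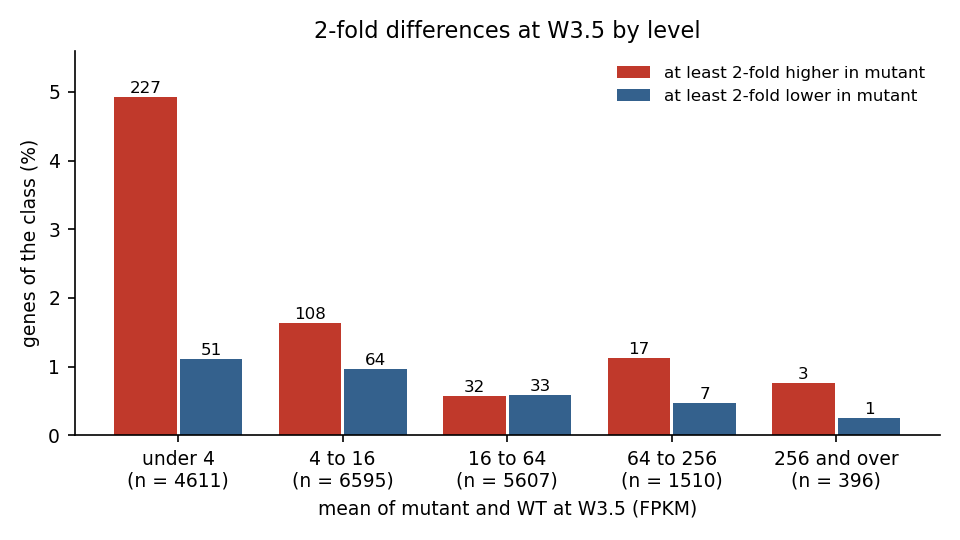
Share of genes at least 2-fold higher (red) or lower (blue) in the mutant at W3.5 (vertical axis, percent of the genes in a class) by the mean of both genotypes (horizontal axis, FPKM); numbers over the bars count genes. The lowest class has 227 genes higher in the mutant and 51 lower, while the class of 16 to 64 FPKM has 32 and 33.

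Genes near 0 in the other genotype made up much of the upward side and little of the downward side. Of the 387 genes higher in the mutant, 176 (45.5%) had a WT mean under 0.5 FPKM, and 45 of these (11.6% of the 387) were listed at 0 in WT. Their levels in the mutant were mostly modest, with a median of 2.48 FPKM, and the highest stood at 119.9 FPKM. Another 77 (19.9%) were at 4 FPKM or more in WT already. Of the 156 lower genes, 21 (13.5%) had a mutant mean under 0.5 FPKM, 3 of them listed at 0, and 69 (44.2%) kept 4 FPKM or more in the mutant. An exact 0 in these means says only that the gene is listed at 0.

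Above 16 FPKM a few genes were present in 1 genotype and close to absent in the other at both stages. HORVU4Hr1G050060, on chromosome 4H by its identifier, had a mean of 119.9 FPKM in the mutant and 0.0429 FPKM in WT at W3.5, a difference of 6.86 on the log2(FPKM + 1) scale. At W2.0 its means were 102.5 FPKM in the mutant and 0.145 FPKM in WT. HORVU6Hr1G018030, on 6H, was the reverse, at 0.056 FPKM in the mutant and 70.9 FPKM in WT at W3.5, a difference of -6.09. Its W2.0 means were 0.219 FPKM in the mutant and 79.5 FPKM in WT. Both genes thus had a difference of the same sign and nearly the same size at the earlier stage, in libraries that do not enter the W3.5 means. HORVU3Hr1G015730, on 3H, stood at 64.3 FPKM in the mutant and 2.98 FPKM in WT at W3.5 (difference 4.04), and at 63.5 FPKM in the mutant and 1.89 FPKM in WT at W2.0.

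Other abundant genes differed mainly at W3.5 or reversed between the stages. HORVU4Hr1G023200, on 4H, had 6.06 FPKM in the mutant and 227.2 FPKM in WT at W3.5, a difference of -5.01, against 72.1 FPKM in the mutant and 211.6 FPKM in WT at W2.0. The WT level was thus similar at both stages while the mutant level was far lower at W3.5. One gene on 2H had 126.4 FPKM in the mutant and 13.8 FPKM in WT at W3.5, but 11.2 FPKM in the mutant and 184.5 FPKM in WT at W2.0, so its difference turned from -3.92 at W2.0 to 3.10 at W3.5. A gene on 7H did the same at lower levels, with 40.9 FPKM in the mutant and 4.57 FPKM in WT at W3.5, and 4.83 FPKM in the mutant and 25.8 FPKM in WT at W2.0. Among the 396 most abundant genes, the 3 that were 2-fold higher had means in the mutant and in WT of 928.5 and 162.2 FPKM, of 1793 and 641 FPKM and of 779.6 and 311.2 FPKM. The lower gene of that class had 201 FPKM in the mutant and 713.4 FPKM in WT. Whether these differences exceed the spread between libraries could not be tested at such levels, because single libraries were not recovered there.

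The 2-fold genes leaned the same way at W2.0, in part of the cases. Of the 387 genes higher at W3.5, 269 (69.5%) had a positive difference at W2.0, 150 were 2-fold higher there too and 55 were 2-fold lower. Their median difference was 1.44 at W3.5 and 0.63 at W2.0. Of the 156 lower genes, 104 (66.7%) had a negative difference at W2.0, 41 were 2-fold lower and 13 were 2-fold higher, with medians of -1.24 at W3.5 and -0.41 at W2.0. Over all 18719 genes the difference at W2.0 was positive for 53.2%, with 455 genes 2-fold higher and 265 2-fold lower. Both directions at W2.0 were thus more common among the 2-fold genes of W3.5 than among all genes. The 2-fold genes were picked on their W3.5 means, so smaller medians at W2.0 can follow from the choice alone. Across the classes of level the share of the same sign showed no steady trend, from 47.1% (8 of 17) to 76.9% (83 of 108) of higher genes, and from 57.8% (37 of 64) to 85.7% (6 of 7) of lower genes in classes of more than 1 gene.

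Movement of each genotype between the stages was also counted on both sides. For 175 of the 387 higher genes (45.2%) neither genotype moved by 2-fold between W2.0 and W3.5. In another 136 (35.1%) WT fell by at least 2-fold from W2.0 to W3.5 while the mutant stayed within 2-fold. In 17 (4.39%) the mutant rose by at least 2-fold and WT stayed within 2-fold. Among the 156 lower genes, 87 (55.8%) were within 2-fold between stages in both genotypes. In 21 (13.5%) WT alone rose by 2-fold, and in 29 (18.6%) the mutant alone fell by 2-fold. The W3.5 means enter both the choice of these genes and the stage differences, so these shares are a description of the means. Such shares were not counted over all kept genes, so no difference between the sides is concluded.

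Single libraries were recovered for part of the genes, and the spread given below is that of the recovered values. A mean of 3 FPKM values is built from whole reads, a gene length and 3 library depths, and for genes of low level 1 such combination could often be picked out from the printed digits, with a probability above 0.99. This held for 4569 of the 18719 genes (24.4%) and for none at 16 FPKM and over, where it was not attempted. The probability gave more weight to combinations whose libraries lay close to the group mean. How far that weighting affects the spread was not tested. Depth ran from 63298092 to 75896357 reads per library, and the tested genes had a median of 171 reads per gene and library. Which library is which numbered replicate is unknown, so they are called A, B and C by falling depth. The mean correlation of log2 values across the tested genes was 0.848 between mutant libraries and 0.884 between WT libraries at W3.5, and 0.816 between a mutant and a WT library. It was 0.775 among the mutant libraries of W2.0, which had the widest spread. The median coefficient of variation was 20.7% there, against 17% in the mutant and 15.9% in WT at W3.5. It was taken only over genes with many reads in every library of a group, 2828, 2806 and 2942 genes in that order. Tested genes with few reads are left out of it.

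Of 4973 genes tested with limma over all 12 libraries, 40 rose in the mutant at W3.5 (0.804%) and 21 fell (0.422%) at a Benjamini-Hochberg adjusted p under 0.05. An unadjusted p under 0.05 was found for 555. Genes that may share reads were counted singly. A pair on 3H among those that fell had the same recovered length and similar library values. Of the tested genes, 4483 were among those kept at W3.5, as were all 61 called. The others had means under 1 FPKM in both genotypes at W3.5, and they count in the adjustment and in percentages of tested genes. Tested genes had a median level of 2.29 FPKM and none exceeded 15.3 FPKM, so the test covers the lower part of the range: 80 of the 387 higher and 34 of the 156 lower genes were among them, and 52 of these 114 (45.6%) were called. The median log2 fold change was 1.52 among genes that rose, from 0.76 to 2.91, and -1.24 among genes that fell, from -2.35 to -0.59. For genes that rose it remained 1.52 with the 4 that had no read in any WT library set to the limit that 3 reads over the group allow. That step was too small to move any of the 4 across the median. In all 61 the mutant libraries lay outside the range of the WT libraries, against 348 (7%) of all tested genes with every mutant library higher and 570 (11.5%) with every mutant library lower. The 61 were called on these same libraries, so their separation is no added evidence. Of the genes that rose, 27 had a WT mean under 0.5 FPKM, 9 between 0.5 and 2 FPKM and 4 above. The medians of their group means were 3.3 FPKM in the mutant and 0.308 FPKM in WT. Genes that fell had medians of 0.768 FPKM in the mutant and 4.29 FPKM in WT, and 8 of the 21 were under 0.5 FPKM in the mutant. Without WT W3.5 library A only 9 genes fell, and without mutant library A or C, or WT library C, of W3.5 only 12 did.

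Among the tested genes, HORVU5Hr1G079440, on 5H, had the highest log2 fold change on the FPKM + 1 scale, barely above that of the next gene. Its mutant libraries A, B and C stood at 7.37, 8.52 and 4.38 FPKM, against 0 in each of the 3 WT libraries. The mutant total was 1102 reads and the WT total 0 reads, for which 3 reads over the group is the limit (0.0188 FPKM), which puts the mutant at least 364-fold higher, counting error alone considered. On the log2(FPKM + 1) scale limma gave a difference of 2.91 ± 0.24 (SE), with an adjusted p of 4.19e-05. HORVU5Hr1G108870, also on 5H, had 5.04, 10.6 and 5.58 FPKM in the mutant libraries, against 0, 0.0831 and 0 FPKM in the WT libraries. All its mutant libraries were far above WT, with B above the other two, and limma gave 2.91 ± 0.40 (SE) on that scale, with an adjusted p of 0.0014. Its call was lost with limma-voom (adjusted p = 0.225).

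HORVU4Hr1G065270, on 4H, had the lowest log2 fold change on that scale among the tested genes, while by the ratio of reads another gene, on 4H, was lower, with 0.0446 of the WT level in the mutant against 0.0579 for HORVU4Hr1G065270. Its mutant libraries held 0.367, 0.312 and 0.372 FPKM, against 7.19, 6.72 and 4.12 FPKM in the WT libraries. Even the lowest WT library was far above the highest mutant one, and limma gave -2.35 ± 0.21 (SE), with an adjusted p of 5.67e-05. HORVU4Hr1G078460, on 4H, had 0.537, 0.732 and 0.511 FPKM in the mutant libraries, against 7.76, 7.42 and 5.78 FPKM in the WT libraries, where limma gave -2.32 ± 0.24 (SE) and an adjusted p of 0.000172. At W2.0 its WT mean was lower, at 2.86 ± 1.54 FPKM, against 0.314 ± 0.241 FPKM in the mutant (SD, n = 3 each), and the log2 fold change there was -1.50.

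**Figure D3:**
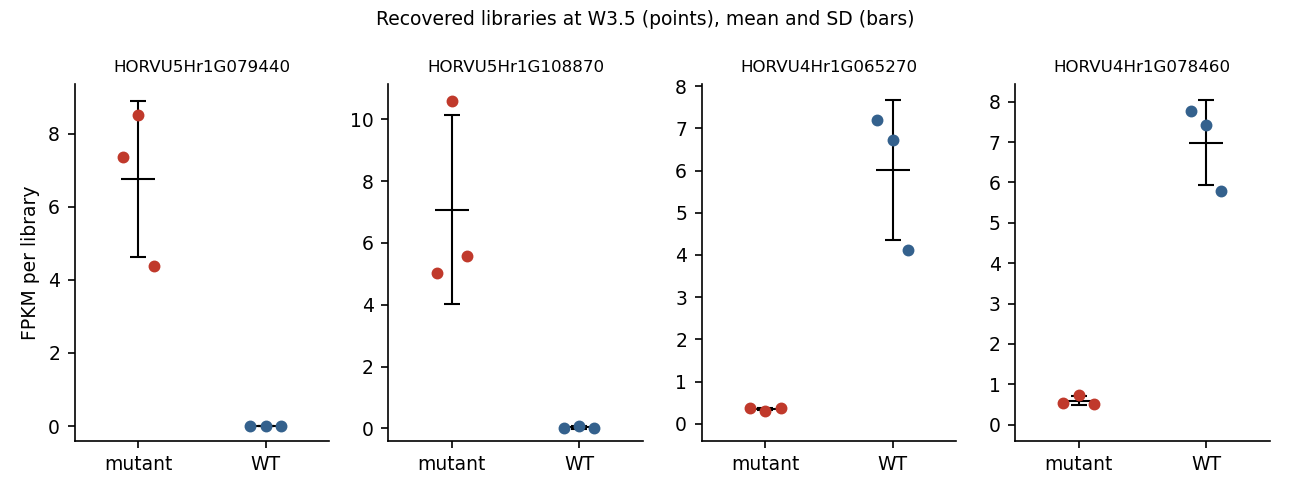
FPKM of each recovered library at W3.5 (vertical axis) in mutant (left, red) and WT (right, blue) for 2 genes that rose and 2 that fell; points are libraries, bars the mean and SD of 3. No mutant point overlaps a WT point, and the WT libraries of HORVU5Hr1G079440 are all at 0.

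Genes called at W3.5 mostly had a difference of the same sign at W2.0, in libraries from the earlier stage. Both contrasts came from 1 fit with the same SE for a gene, so calls at W2.0 are not independent of those at W3.5. The share of equal signs over all tested genes was not counted. Of the 40 that rose, 38 had a positive log2 fold change at W2.0, 31 rose there too (0.905% of all tested genes did) and none fell, and in 37 the mutant libraries of W2.0 all lay above those of WT (8.26% of all tested genes). The median log2 fold change of the 40 was 1.52 at W3.5 and 1.51 at W2.0, and the 2 genes with a negative value at W2.0 reached no lower than -0.21. All 21 that fell were negative at W2.0, and 9 fell there (0.422% of all tested genes did). In 15 of the 21 all mutant libraries of W2.0 were below all WT libraries (5.83% of all tested genes), and the median was -1.24 at W3.5 and -0.91 at W2.0. The change of the genotype effect between stages, tested as an interaction in limma, passed for 2 of 4973 genes (0.0402%), neither of them among the 61, while 397 had unadjusted p-values under 0.05. Among the 61 called genes the smallest adjusted p of that test was 0.161 for a gene that rose and 0.463 for one that fell, which does not show that the effects were equal.

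**Figure D4:**
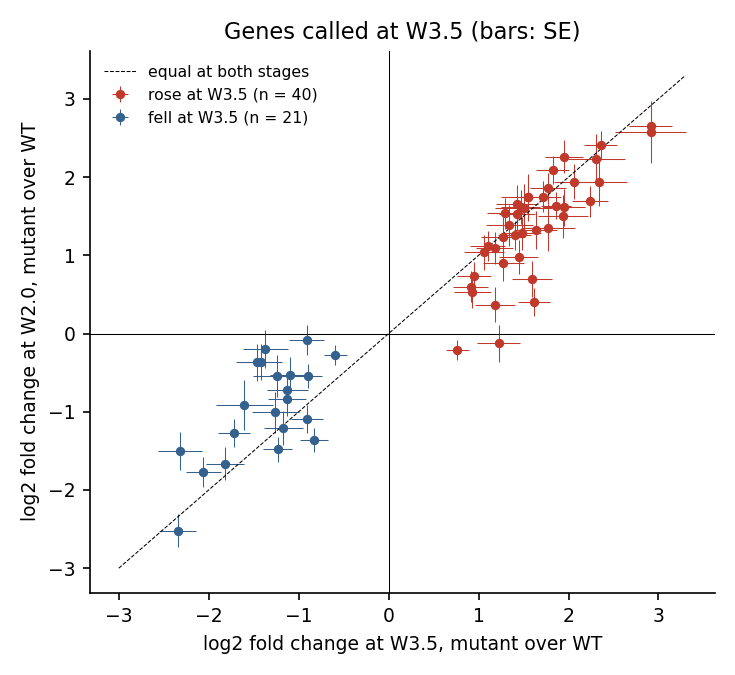
Log2 fold change of mutant over WT at W2.0 (vertical axis) against W3.5 (horizontal axis), both on the FPKM + 1 scale, for the 40 genes that rose (red) and the 21 that fell (blue) at W3.5; bars are SE. Most red points lie near the line of equality, with medians of 1.51 at W2.0 and 1.52 at W3.5, and most blue points lie above it, with medians of -0.91 at W2.0 and -1.24 at W3.5.

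Genes that differed were spread over the 7 chromosomes. The identifier gives the chromosome and the order of genes along it, without coordinates. Genes 2-fold higher in the mutant made up 1.78% of the kept genes on 5H and 2.34% on 6H, the extremes among the placed chromosomes, and 2.85% of genes with no chromosome. Genes 2-fold lower ran from 0.509% on 3H to 1.27% on 7H. In identifier order, higher genes often stood side by side. Of 387, 73 (18.9%) had another higher gene as the next kept gene on either side, against 4% of all kept genes. Of 156 lower genes, 14 (8.97%) were beside a lower one, against 1.65%. Genes with no chromosome were counted in these shares as if they formed 1 chromosome. No test was made of these shares. How reads matching several genes were counted is not given in the sources used here, so near-identical or overlapping neighbours may share reads, and the library kit did not mark strand.

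Of the runs of at least 3 higher neighbours, 5 had 3 genes and 1 had 4, and no run of lower genes exceeded 2. The run of 4 was on 4H, with differences of 2.31, 1.52, 1.78 and 1.98 at W3.5 and 2.39, 1.20, 1.40 and 1.64 at W2.0. Its first gene had 5.42, 7.06 and 6.47 FPKM in the mutant libraries, against 0.394, 0.671 and 0.362 FPKM in the WT libraries of W3.5. All 4 were tested and 3 rose, while the other had a limma adjusted p of 0.107. A run of 3 on 2H rose in every gene (limma adjusted p of 0.0343, 0.0023 and 0.0198) and had differences of 1.05, 1.32 and 1.40 at W2.0. Another run on 2H, with 1.46, 4.70 and 4.54 FPKM in the mutant and at most 0.0266 FPKM in WT at W3.5, went the other way at W2.0, where the mutant had 0.022, 0.332 and 0.191 FPKM and WT 1.37, 5.68 and 3.09 FPKM. A run on 3H also reversed, with differences of 2.00, 1.39 and 1.42 at W3.5 and -3.20, -2.34 and -2.05 at W2.0. The remaining runs, on 2H and 4H, had differences between -0.32 and 0.79 at W2.0, and the 2 tested genes of the 2H run did not pass at W3.5 (limma adjusted p of 0.355 and 0.0611). The reversing runs were not tested, since their libraries were not recovered.

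**Figure D5:**
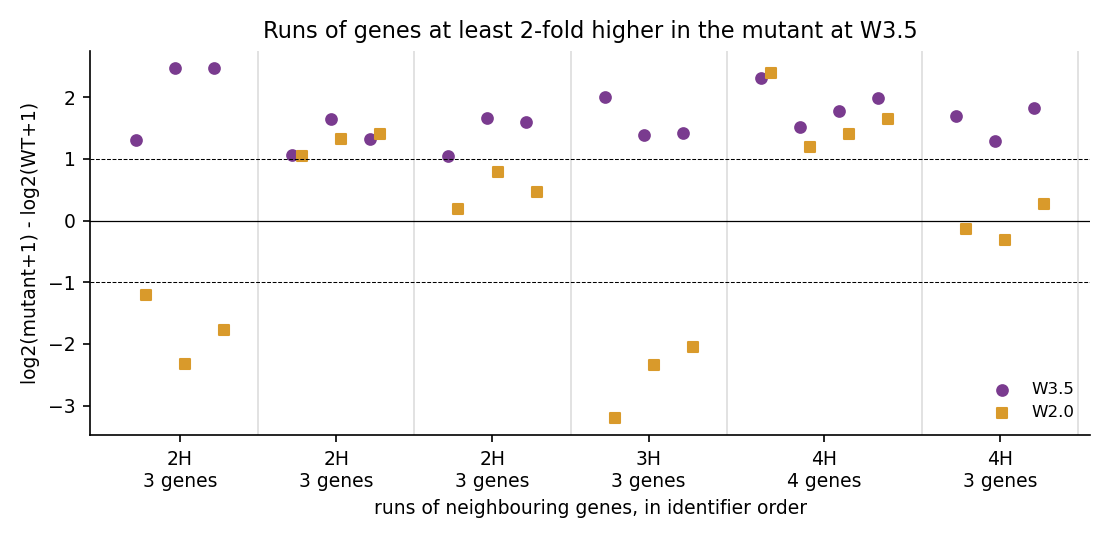
Difference of the authors' means, log2(mutant + 1) minus log2(WT + 1) (vertical axis), at W3.5 (purple circles) and W2.0 (orange squares) for the 19 genes of the 6 runs of neighbouring higher genes, in identifier order within each run. All circles lie above 1 by the choice of the runs, while the squares of a 2H and a 3H run lie below -1.

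In 7 places a 2-fold higher gene was next to a 2-fold lower one, which is close to the background: 1.81% of higher genes were beside a lower one, against 1.65% of all kept genes, and 4.49% of lower genes were beside a higher one, against 4%. On 7H, a gene at 5.19 FPKM in the mutant and 46.8 FPKM in WT preceded one at 25.9 FPKM in the mutant and 0.0324 FPKM in WT. The same pair differed by -1.46 and 4.52 at W2.0. In another of these places HORVU4Hr1G065270 was beside a gene at 4.40 FPKM in the mutant and 0.281 FPKM in WT, and at W2.0 this neighbour stood at 3.21 FPKM in the mutant and 0.122 FPKM in WT.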

How the data were processed

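The deposited table gave 1 FPKM column per group, each the authors' mean of 3 libraries, for 29014 identifiers. That the unit is FPKM was read from the values; no header gives it. Per the submitters' processing notes, the tools were FastQC, HISAT2 2.0.0 and HTSeq 0.11.2, whose roles are not described there. The genome build and the annotation: not given in the sources used here. The planned test assumed values per library. Library depths, gene lengths and whole reads were therefore recovered from the printed digits (python 3.11.15, numpy 2.4.6, numba 0.67.0), keeping genes whose best solution held a probability above 0.99. At the scale chosen, each of the 12 depths was a whole number to within 0.1. After it was run on the real values, the search was tested on simulated data with known reads and with lengths drawn from the recovered genes. No pair of libraries agreed within sampling noise. Tests were limma-trend fits (limma 3.58.1, R 4.3.3) of log2(FPKM + 1) with 1 model of 4 group means and Benjamini-Hochberg adjustment over the 4973 genes that reached 1 FPKM in 3 or more libraries; such fold changes understate the change of low genes. The limma step was tested on simulated data. None of the identifiers matched the RefSeq gene table, so no sequence, name or coordinate is given. Identifiers are printed for the 2 strongest genes each way, both among tested genes and above 16 FPKM, and for genes whose stage effect passed; other genes are given by value. The genes, lists and tests were chosen with earlier results of these data known.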

Additional observations from a re-analysis of the deposited data

Results flagged for a closer look

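For 2 of the 4973 genes tested, the difference between mutant and WT was not the same at W3.5 as at W2.0 by the interaction term in limma. HORVU1Hr1G076100, on 1H, stood at 2.46 ± 0.372 FPKM in the mutant and 2.35 ± 0.413 FPKM in WT at W3.5, and at 1.69 ± 0.329 FPKM in the mutant and 9.07 ± 1.89 FPKM in WT at W2.0 (SD, n = 3 each). Its interaction, the log2 fold change at W3.5 minus that at W2.0, was 1.95 ± 0.26 (SE, limma adjusted p = 0.0102). HORVU6Hr1G000510, on 6H, stood at 0.0507 ± 0.0879 FPKM in the mutant and 0.119 ± 0.105 FPKM in WT at W3.5, and at 5.26 ± 1.74 FPKM in the mutant and 0.118 ± 0.116 FPKM in WT at W2.0 (SD, n = 3 each). Its interaction was -2.54 ± 0.33 (SE, limma adjusted p = 0.0102). Neither gene differed past the threshold at W3.5 itself (limma adjusted p = 0.957 and 0.926). Both calls were lost with limma-voom, without mutant W3.5 library B and without mutant W2.0 library A. That of HORVU1Hr1G076100 was also lost without WT W2.0 library C, and that of HORVU6Hr1G000510 with a pseudocount of 0.1.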

How the results depend on the processing

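With a pseudocount of 0.1 the authors' means gave 598 genes 2-fold higher in the mutant and 358 lower. Higher genes were then 62.6% of the 2-fold genes, against 71.3% as reported above. A pseudocount of 5 gave 105 and 46 (69.5% higher). A filter of 5 FPKM left 190 higher genes and 114 lower (62.5% higher). Scaling by the median ratio (410 and 130) or to the upper quartile (405 and 134) changed the higher share by under 10 percentage points, to 75.9% and 75.1%. Genes that rose or fell in limma numbered 44 and 18 with a pseudocount of 0.1, 47 and 22 with no filter, 41 and 18 with RLE size factors, 41 and 23 in the 6 libraries of W3.5 alone, and 27 and 20 with limma-voom, which shared 27 and 12 genes with the calls given above. Leaving out 1 library gave 29 to 42 genes that rose, fewest without WT W3.5 library A, and 9 to 25 that fell. The interaction passed for 1 gene with a pseudocount of 0.1 and for 0 with limma-voom (355 at an unadjusted p under 0.05). Leaving out 1 library it passed for 0 to 4 genes, with 0 without mutant W3.5 library B or mutant W2.0 library A, 1 without WT W2.0 library C and 4 without mutant W2.0 library B. The causes were not tested. No paired analysis was possible because the recovered libraries carry no replicate numbers. The edgeR quasi-likelihood test, planned only for deposited counts per library, was not run on the recovered reads. Tested genes had a median of 171 reads per gene and library. The median SE of the W3.5 difference was 0.28 at a level of 0 to 1 FPKM and 0.18 at 4 to 16 FPKM. How far depth limits the calls was not tested, and genes at 16 FPKM and over have no library values at all.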

Other observations

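On chromosome 5H, 16 of 734 tested genes passed in limma at W3.5 (2.18%, against 1.23% of all tested genes). At W2.0 the chromosome did not stand out, with 9 genes passing (1.23%, against 1.33% of all tested genes). Of the 16 genes, 10 had identifiers numbered from 10000 to below 40000, a stretch chosen after its values were seen, in which 156 genes were tested (6.41% called), 7 of the 10 rose and 3 fell. All 10 had the same sign at W2.0, where 5 passed in the same fit. The authors' means over the same stretch did not stand out, with 8 genes 2-fold higher and 8 lower of 583 kept (2.74%, against 2.9% of all kept genes). The cause was not tested.

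Genes that rose had a median recovered length of 746.5 bases and genes that fell 1221 bases, against 1078 bases for all tested genes.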
